A study of Mus musculus with 21 samples.

Results

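The collagen chain genes are the genes whose annotated symbol is Col, a number, the letter a and a number. They made up 42 of the 18193 genes that had a probe set mapping to no other gene, and they were sorted by the kind of assembly their chains form: 11 fibrillar, 8 basement membrane, 9 fibril-associated and 14 other chains. The probe set with the highest mean signal stood for each gene. RNA had been taken from the glandular stomach of single mice, labelled female and aged 18 to 65 weeks by the study's design text, with 1 Affymetrix array for each mouse, giving 21 arrays. The paper names the strain C57BL/6 with the wild-type mice only. Wild-type mice (n = 3) carried no transgene, K19-Wnt1 mice (n = 5) carried Wnt1, a Wnt pathway ligand, and K19-Nog mice (n = 2) carried Nog, the gene of noggin, which is secreted and blocks BMP ligands. K19-C2mE mice (n = 3) carried COX-2 together with mPGES-1, the enzymes that make prostaglandin E2, and the compound genotypes, K19-Wnt1/C2mE (n = 5) with Wnt1 and K19-Nog/C2mE (n = 3) with Nog, carried those genes as well. The K19 promoter drives every transgene in the gastric epithelium, so that the chains made by stromal cells were measured in mice whose transgene was expressed in another cell layer. The last 3 genotypes, which develop hyperplastic, dysplastic and hamartomatous growths of the stomach respectively, are called here the C2mE genotypes, and where 3 values stand in a row without a name they follow that order.

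Collagens are trimers of chains that share a repeat of glycine with other residues. Fibrillar collagens such as types I, III and V form the load-bearing fibres of the stroma and are made mainly by fibroblasts and smooth muscle cells, and fibril-associated collagens such as types XII and XIV sit on the surface of those fibres. Type IV collagen forms the network of the basement membrane, in which the alpha1 and alpha2 chains (Col4a1, Col4a2) build the common trimer, while the alpha3, alpha4, alpha5 and alpha6 chains (Col4a3 to Col4a6) build trimers of more restricted distribution. Types XV and XVIII join basement membranes to the tissue around them, type VI forms beaded microfibrils, type VII forms the fibrils that anchor squamous epithelium, and type XVII is a membrane-spanning collagen of the hemidesmosome of basal epithelial cells.

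Levels are log2 of the deposited intensity on each array. Arrays of one genotype correlated with each other at 0.983 to 0.996 over all probe sets. Of the 42 chains, 13 lay above the array's median gene on every array, 17 lay below it on every array and 12 lay above it on some. RNA of Y-linked genes was present on 9 of the 21 arrays although all mice were labelled female: 4 of 5 K19-Wnt1 arrays, 2 of 3 in K19-C2mE, 2 of 3 in wild-type and 1 of 5 in K19-Wnt1/C2mE, and none from K19-Nog or K19-Nog/C2mE. Xist, the RNA of X inactivation, was at most 7.43 on those 9 arrays and at least 11.13 on the others, the pattern of male and female samples. Sex thus appears to differ between the genotypes. The changes of the chains were therefore also computed without the arrays that held Y-linked RNA, which leaves wild-type and K19-C2mE with 1 array each. The shares of all genes below come from all 21 arrays, so counts from that run have no such share beside them. The 11 markers of glandular stomach epithelium summed to an intensity of 240226 to 241539 in wild-type. The sums were 153227 to 200607, 136006 to 179611 and 145062 to 163597 in the 3 C2mE genotypes. None of the markers lay below the array's median gene on every array. Single markers were mixed: 2 were higher in each C2mE genotype, and 0, 6 and 4 were lower. These were 18.2%, 72.7% and 54.5% of the list, against 29.1%, 43.6% and 32.6% of all genes. The part of these markers in the results on the chains was not tested. Because whole tissue was measured, fewer cells of a type and less RNA per cell cannot be told apart. Whether the mice of a genotype shared litters or cages was not stated, so the p-values measure the spread between these mice.

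The question of each comparison with wild-type was which chains a transgene changes. Among the 42 chains, 15 changed in K19-C2mE (8 higher, 7 lower), which is 35.7% against 29.1% of all genes tested (15.3% higher, 13.8% lower). In K19-Wnt1/C2mE 20 changed (9 higher, 11 lower), or 47.6% against 43.6% of all genes (21.1% higher, 22.5% lower). In K19-Nog/C2mE 14 changed (4 higher, 10 lower), or 33.3% against 32.6% (15.9% higher, 16.7% lower). These shares were near the background, so the chains as a family did not stand apart in number, and the median log2 change of the 42 chains was -0.09, -0.13 and -0.17 in the 3 genotypes against -0.02, -0.04 and -0.03 over all genes. Col18a1, Col5a2, Col6a3 and Col6a4 were higher in every C2mE genotype, and Col4a3, Col4a4, Col4a6, Col14a1 and Col2a1 were lower in every one. These comparisons share the wild-type arrays. In all, 23 chains changed in at least 1 C2mE genotype, and the other 19 had log2 changes of -0.38 to 0.50, -0.26 to 0.63 and -0.37 to 0.39, and 0 chains were higher in one and lower in another. Without the arrays that held Y-linked RNA, 1, 9 and 8 chains passed in the 3 C2mE genotypes, and without the array K19-C2mE 2 alone 8 passed in K19-C2mE.

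**Figure D1:**
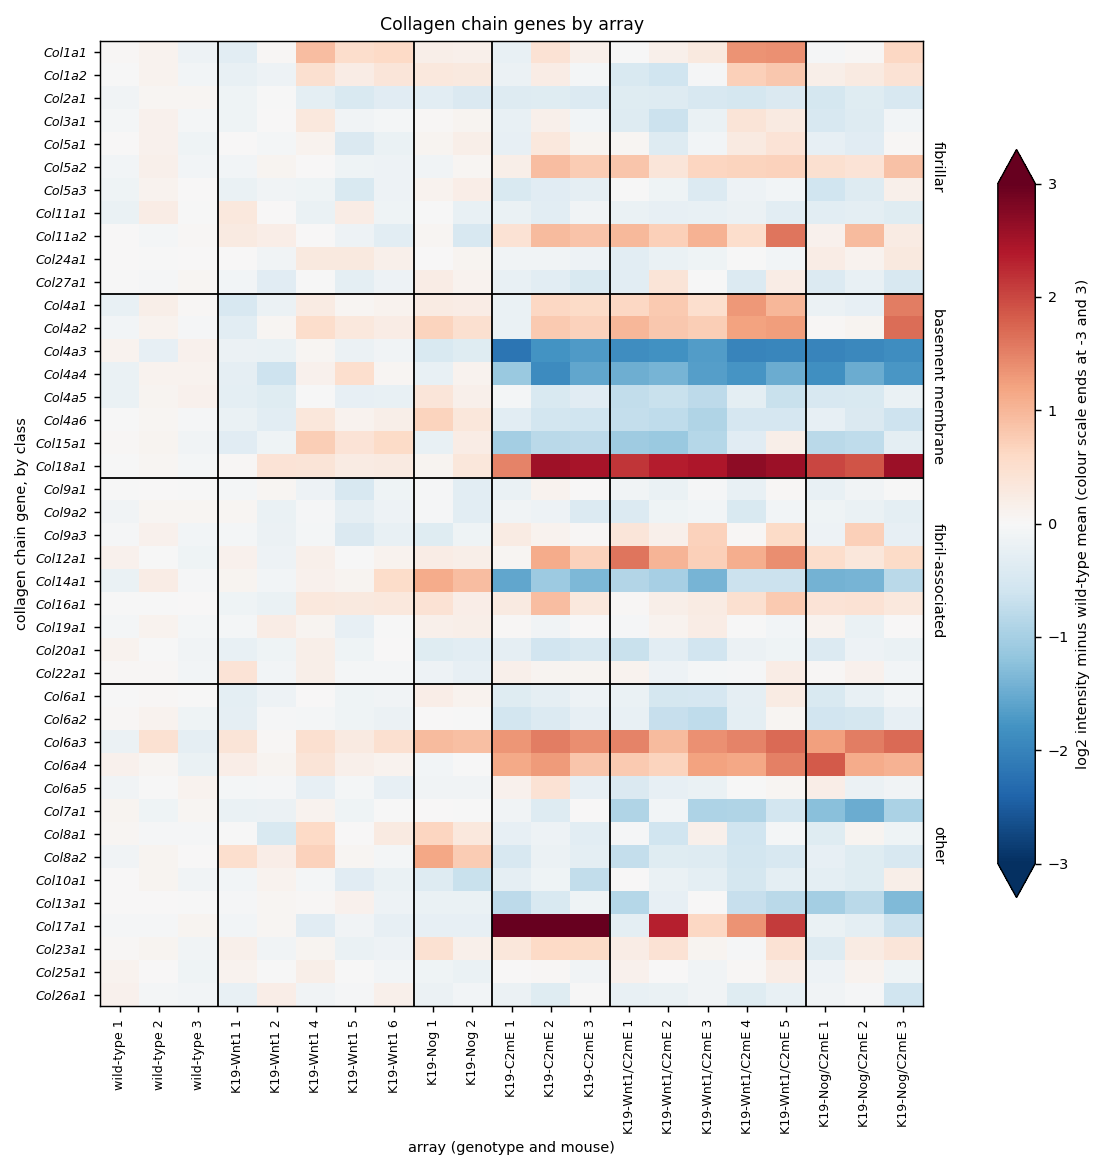
Each row is 1 of the 42 collagen chain genes, sorted by class, and each column is 1 of the 21 arrays, with colour showing log2 intensity minus the wild-type mean. Col18a1 and Col6a3 are above wild-type and Col4a3 and Col4a4 below it on every array of the C2mE genotypes, and Col17a1 is highest on the 3 K19-C2mE arrays.

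**Figure D2:**
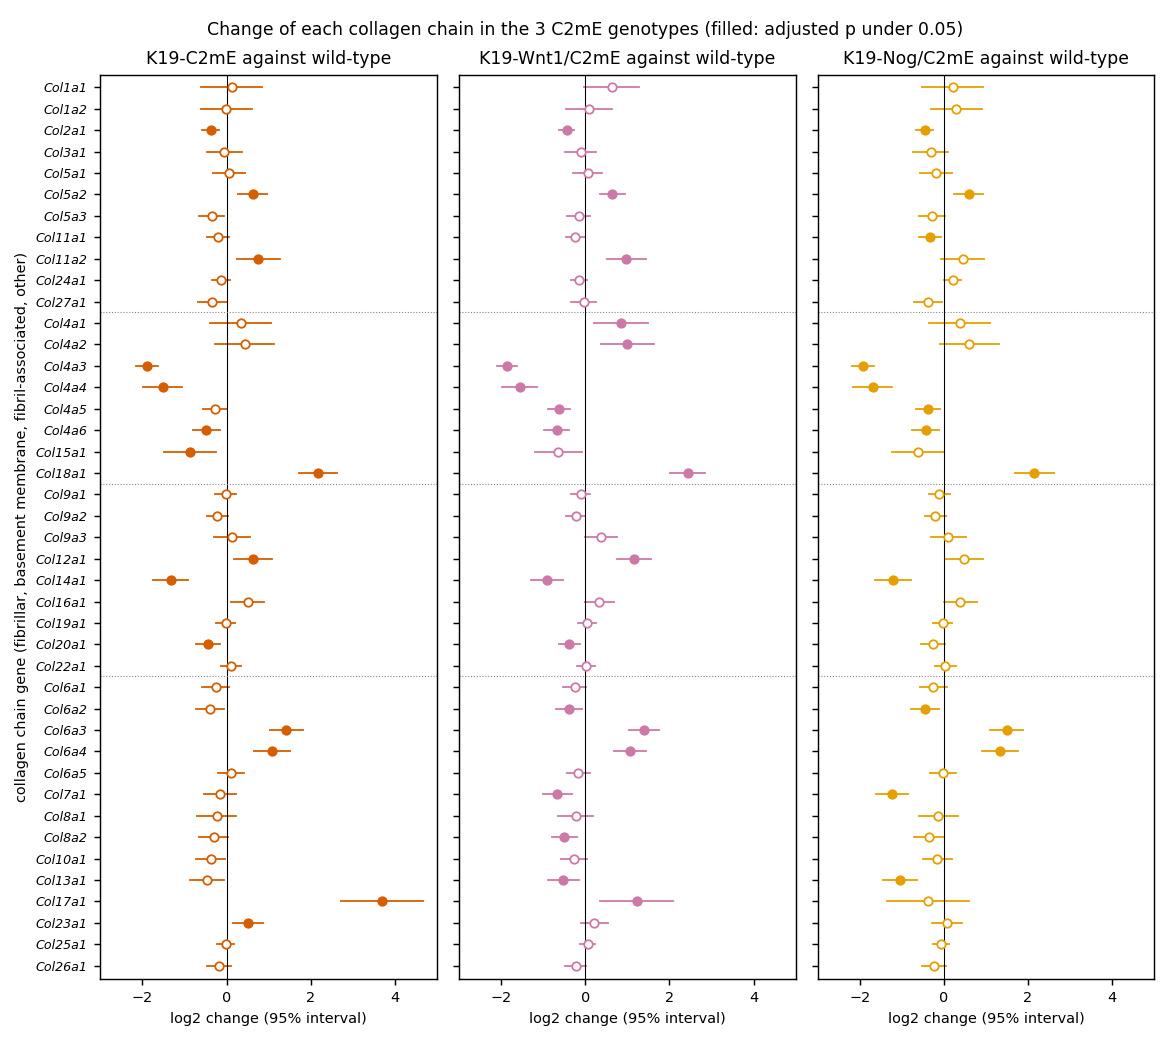
Points give the log2 change of each of the 42 chains against wild-type in the 3 C2mE genotypes, lines give the 95% interval, and filled points passed an adjusted p of 0.05. Most intervals of the fibrillar chains span 0, whereas Col4a3, Col4a4 and Col18a1 lie far from it in all panels.

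The basement membrane chains held both the rises and the falls. In the 3 C2mE genotypes 5, 7 and 5 of these 8 chains changed (62.5%, 87.5% and 62.5%, beside 29.1%, 43.6% and 32.6% over all genes), with 1, 3 and 1 of them higher. Col18a1, the chain of type XVIII collagen from whose end the fragment endostatin is cut, measured 8.44, 8.51 and 8.39 on the wild-type arrays. It measured 9.94, 10.99 and 10.93 in K19-C2mE, 10.60, 10.80, 10.88, 11.12 and 11.01 in K19-Wnt1/C2mE, with 10.45, 10.33 and 11.01 in K19-Nog/C2mE. The lowest of those 11 arrays, K19-C2mE 1, was still above every array of the genotypes without C2mE, which ranged from 8.39 to 8.86. The rise was 4.51-fold in K19-C2mE (log2 change 2.17, SE 0.22, adjusted p = 7.53e-07), 5.41-fold in K19-Wnt1/C2mE (2.44, SE 0.20, adjusted p = 1.48e-08) and 4.44-fold in K19-Nog/C2mE (2.15, SE 0.22, adjusted p = 5.48e-07). A second probe set of Col18a1 rose by 2.50, 2.91 and 2.42 log2 units in the same genotypes. Without the arrays that held Y-linked RNA the rise was 2.34 in K19-Wnt1/C2mE (adjusted p = 0.00106), 2.08 in K19-Nog/C2mE (adjusted p = 0.00283), and K19-C2mE, left with 1 array, did not pass (1.42, adjusted p = 0.0854).

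Col4a3 and Col4a4, the alpha3 and alpha4 chains of type IV collagen, are neighbours on chromosome 1 and fell together. Col4a3 measured 6.67, 6.33 and 6.70 in wild-type, 4.37, 4.79 and 4.88 in K19-C2mE, 4.71, 4.75, 4.90, 4.58 and 4.61 in K19-Wnt1/C2mE, with 4.60, 4.63 and 4.69 in K19-Nog/C2mE. Every array of the C2mE genotypes lay below every wild-type array, and the 5 K19-Wnt1 arrays (6.38 to 6.63) overlapped wild-type. The K19-Nog arrays, at 6.12 and 6.20, were also below wild-type and did not pass (-0.41, adjusted p = 0.128). Col4a3 was lower by 3.71-fold, 3.63-fold and 3.801-fold (log2 changes -1.89, -1.86 and -1.93, adjusted p = 5.41e-09, 4.86e-10 and 2.5e-09), and it kept its call in all 3 comparisons without the arrays that held Y-linked RNA (-1.96, -1.60 and -1.69). Col4a3 lay below the array's median gene on every array, so its fall was measured at low signal. Col4a4 measured 6.65, 6.94 and 6.94 in wild-type, 5.73, 4.97 and 5.29 in K19-C2mE, 5.38, 5.45, 5.20, 5.07 and 5.36 in K19-Wnt1/C2mE, with 5.002, 5.37 and 5.10 in K19-Nog/C2mE. The groups again did not overlap, with falls of 2.86-fold, 2.94-fold and 3.22-fold (adjusted p = 4.56e-05, 4.52e-06 and 1.12e-05). Leaving out the arrays that held Y-linked RNA gave -1.21, -1.67 and -1.79 for Col4a4, and the first did not pass (adjusted p = 0.0547, 0.00121 and 0.00146). The second probe set of Col4a3 and both further probe sets of Col4a4 passed in the same direction in each of these comparisons.

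Col4a5 and Col4a6, the alpha5 and alpha6 chains, lie head to head on chromosome X in RefSeq (GRCm38.p6). Col4a6 measured 7.09, 7.16 and 7.08 in wild-type, 6.80, 6.56 and 6.52 in K19-C2mE, 6.39, 6.35, 6.20, 6.61 and 6.60 in K19-Wnt1/C2mE, with 6.86, 6.69 and 6.50 in K19-Nog/C2mE. Each C2mE array was below each wild-type array. Its log2 change was -0.49, -0.68 and -0.43 (adjusted p = 0.0239, 0.000597 and 0.0397). In K19-C2mE the call on Col4a6 was lost when any wild-type array, K19-C2mE 2 or K19-C2mE 3 was left out (adjusted p = 0.0511 to 0.0856), and in K19-Nog/C2mE when any wild-type array, K19-Nog/C2mE 2 or K19-Nog/C2mE 3 was left out (adjusted p = 0.0714 to 0.157). Leaving out the arrays that held Y-linked RNA gave -0.36, -0.77 and -0.48 for Col4a6, and the second alone passed (adjusted p = 0.592, 0.0306 and 0.187). Col4a5 was lower in K19-Wnt1/C2mE (-0.62, adjusted p = 0.000416) and K19-Nog/C2mE (-0.38, adjusted p = 0.038) on its brightest probe set, and its second probe set gave 0.17 and 0.10 there, so the direction for Col4a5 depended on the probe set. Its K19-Nog/C2mE call was lost without wild-type 2, wild-type 3, K19-Nog/C2mE 1 or K19-Nog/C2mE 2 (adjusted p = 0.104 to 0.139), and neither of its calls passed with the arrays that held Y-linked RNA left out (-0.69 and -0.46, adjusted p = 0.0506 and 0.216). The wild-type arrays of Col4a5 measured 8.58, 8.85 and 8.91, and the K19-Wnt1/C2mE arrays measured 8.05, 8.12, 8.002, 8.49 and 8.12.

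The stretches of genome before the annotated starts of Col18a1, Col6a3 and the Col4a6 and Col4a5 pair are shown because Col18a1 and Col6a3 had the largest rises shared by the 3 C2mE genotypes and the pair lies head to head. They come from RefSeq (GRCm38.p6), run 5′ to 3′ on the strand of the gene, and end at the base before the outermost annotated start. Capitals mark a CCAAT box (CCAAT) or a GC box (GGGCGG) on either strand. The coordinates are chr10:77166531-77166780 (minus strand) for Col18a1, chr1:90844002-90844221 (minus strand) for Col6a3, chrX:141474096-141474326 (minus strand) for Col4a6 and chrX:141475169-141475369 (plus strand) for Col4a5.
Col18a1: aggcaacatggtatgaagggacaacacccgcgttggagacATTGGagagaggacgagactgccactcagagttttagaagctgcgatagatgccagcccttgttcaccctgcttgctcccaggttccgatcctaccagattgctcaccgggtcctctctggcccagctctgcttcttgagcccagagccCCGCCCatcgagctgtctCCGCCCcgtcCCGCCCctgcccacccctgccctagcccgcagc
Col6a3: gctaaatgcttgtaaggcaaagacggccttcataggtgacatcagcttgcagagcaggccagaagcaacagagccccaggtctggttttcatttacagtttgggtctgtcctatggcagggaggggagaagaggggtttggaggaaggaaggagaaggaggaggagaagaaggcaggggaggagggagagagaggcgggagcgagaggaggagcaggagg
Col4a6: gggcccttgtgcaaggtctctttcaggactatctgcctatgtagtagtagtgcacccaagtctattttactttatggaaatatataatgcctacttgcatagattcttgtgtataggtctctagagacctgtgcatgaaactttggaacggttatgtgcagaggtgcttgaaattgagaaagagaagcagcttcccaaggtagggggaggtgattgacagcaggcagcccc
Col4a5: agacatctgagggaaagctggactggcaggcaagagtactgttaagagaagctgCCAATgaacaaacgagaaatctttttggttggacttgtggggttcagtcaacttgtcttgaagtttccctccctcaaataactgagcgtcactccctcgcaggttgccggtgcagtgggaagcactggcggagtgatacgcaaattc
The Col18a1 stretch held 1 CCAAT box and 3 GC boxes and the Col4a5 stretch 1 CCAAT box, and neither motif was found in the stretches of Col6a3 and Col4a6. The windows of Col4a5 and Col4a6 used for the counts that follow run further, past the outermost start, and each held a GC box that does not lie whole within the stretch shown. RefSeq promoters were matched for 33 of the 42 chains, with 36 annotated starts. Over the 250 bases before the start, a GC box was found in 21 of these 36 windows (58.3%) and in 32.7% of the windows of 32851 starts, and a CCAAT box in 13 (36.1%, against 33.8%). A TATA box (TATAAA) was found in 5 windows (13.9%, against 12.4%), an AP-1 site (TGANTCA) in 1 (2.78%, against 6.75%) and a Tcf/Lef site (CTTTGAT) in 1 (2.78%, against 3.21%), with both strands searched and matches allowed to overlap.

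Col4a1 and Col4a2, the chains of the common type IV trimer, also lie head to head, on chromosome 8. Col4a1 measured 9.90, 10.31 and 10.16 in wild-type and 10.75, 10.91, 10.64, 11.43 and 11.13 in K19-Wnt1/C2mE, and Col4a2 measured 9.07, 9.25 and 9.11 in wild-type and 10.14, 9.94, 9.88, 10.35 and 10.40 in K19-Wnt1/C2mE. Neither pair of groups overlapped, and the rises were 0.85 (adjusted p = 0.0338) and 1.0 (adjusted p = 0.0109) on the log2 scale. The call on Col4a1 was lost when any wild-type array, K19-Wnt1/C2mE 4 or K19-Wnt1/C2mE 5 was left out (adjusted p = 0.0507 to 0.126), and neither chain passed without the arrays that held Y-linked RNA (0.62 and 0.83, adjusted p = 0.529 and 0.335). In the other C2mE genotypes neither chain passed, and the arrays were uneven: Col4a1 measured 9.93, 10.74 and 10.69 in K19-C2mE and 9.94, 9.89 and 11.67 in K19-Nog/C2mE. The summed intensity of 11 endothelial markers was above the wild-type range in K19-Wnt1/C2mE and below it in K19-C2mE, where Col4a1 and Col4a2 changed by 0.33 and 0.43. It was 2450 to 2564 in wild-type, 3270 to 3783 in K19-Wnt1/C2mE (3 higher, 1 lower), 1823 to 2364 in K19-C2mE (1 higher, 1 lower) and 1829 to 4216 in K19-Nog/C2mE (2 higher, 1 lower). Changed markers were 36.4% of the list in K19-Wnt1/C2mE, 18.2% in K19-C2mE and 27.3% in K19-Nog/C2mE, against 43.6%, 29.1% and 32.6% of all genes. The highest K19-Nog/C2mE array for these markers was also the highest for Col4a1. Cldn5 lay below the array's median gene on every array, and the part of these markers in the result was not tested.

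Col15a1, the chain of type XV collagen, measured 8.16, 8.21 and 8.02 in wild-type and 7.10, 7.32 and 7.35 in K19-C2mE. It was lower there by 1.83-fold (log2 change -0.87, SE 0.30, adjusted p = 0.0341), with no overlap. That call was lost when any 1 of the 6 arrays was left out (adjusted p = 0.0591 to 0.0937) and when those with Y-linked RNA were (-1.10, adjusted p = 0.243). In K19-Wnt1/C2mE the Col15a1 arrays ran from 7.02 to 8.30 and overlapped wild-type (-0.64, adjusted p = 0.0579).

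Most fibrillar chains did not pass. In each C2mE genotype 3 of the 11 changed (27.3%, against 29.1%, 43.6% and 32.6% of all genes), and on their brightest probe sets the major chains of types I and III were not among them. Of their dimmer probe sets, 1 of Col1a1 was higher in K19-Wnt1/C2mE (0.41, adjusted p = 0.0112) and 1 of Col1a2 lower there (-0.26, adjusted p = 0.0393). Col3a1, the type III chain of distensible tissue, measured 11.98, 12.17 and 11.98 in wild-type, 11.82, 12.19 and 11.96 in K19-C2mE, 11.67, 11.41, 11.85, 12.43 and 12.30 in K19-Wnt1/C2mE, with 11.56, 11.67 and 11.95 in K19-Nog/C2mE. The 95% intervals of its log2 change were -0.47 to 0.37, -0.49 to 0.27 and -0.74 to 0.10. Col1a2, the alpha2 chain of type I collagen, measured 11.43, 11.53 and 11.35 in wild-type, 11.25, 11.66 and 11.38 in K19-C2mE, 10.97, 10.84, 11.39, 12.16 and 12.25 in K19-Wnt1/C2mE, with 11.61, 11.70 and 11.87 in K19-Nog/C2mE. Its intervals were -0.61 to 0.60, -0.46 to 0.63 and -0.32 to 0.90. In Col1a1, Col1a2 and Col3a1 the arrays K19-Wnt1/C2mE 4 and 5 were the highest of that genotype, and Col1a1 ranged there from 9.42 to 10.79 against 9.28 to 9.53 in wild-type (log2 change 0.63, interval -0.02 to 1.28, adjusted p = 0.108).

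Col5a2, a type V chain that is built into type I fibres, lies next to Col3a1 on chromosome 1 and was higher in every C2mE genotype. It measured 9.49, 9.73 and 9.47 in wild-type, 9.74, 10.49 and 10.32 in K19-C2mE, 10.41, 9.94, 10.22, 10.24 and 10.26 in K19-Wnt1/C2mE, with 10.04, 9.97 and 10.45 in K19-Nog/C2mE. Each of these 11 arrays was above the wild-type arrays, K19-C2mE 1 by the least. The rises were 0.62, 0.65 and 0.59 on the log2 scale (adjusted p = 0.00695, 0.00133 and 0.00886). The call was lost without K19-C2mE 2 in K19-C2mE (adjusted p = 0.052) and without K19-Nog/C2mE 3 in K19-Nog/C2mE (adjusted p = 0.0601), and in all 3 without the arrays that held Y-linked RNA (0.01, 0.47 and 0.42, adjusted p = 0.998, 0.177 and 0.285). Its partner chain in type V collagen, Col5a1, changed by 0.06, 0.06 and -0.18 log2 units on its brightest probe set and did not pass, while another probe set passed in K19-Wnt1/C2mE (0.57, adjusted p over all probe sets = 0.00922). The second probe set of Col5a2 changed by 0.38, 0.13 and 0.48 and passed in none (adjusted p = 0.157, 0.585 and 0.0565).

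Col11a2, a type XI chain best known from cartilage, was higher in K19-C2mE (log2 change 0.75, adjusted p = 0.0273, lost when any wild-type array, K19-C2mE 2 or K19-C2mE 3 was left out, adjusted p = 0.057 to 0.104) and in K19-Wnt1/C2mE (0.97, adjusted p = 0.0016). Col2a1, the chain of cartilage type II collagen, was lower in all 3 C2mE genotypes by 0.38, 0.44 and 0.45 log2 units, and Col11a1 was lower in K19-Nog/C2mE by 0.33 (adjusted p = 0.0426, lost without wild-type 2, wild-type 3 or any K19-Nog/C2mE array, adjusted p = 0.0634 to 0.207). A second, dimmer probe set of Col11a1 was lower in all 3 C2mE genotypes (-0.48, -0.58 and -0.60, adjusted p over all probe sets = 0.000497, 9.43e-06 and 3.8e-05). These 3 chains lay below the array's median gene on every array, and their differences were measured at low signal. Leaving out the arrays that held Y-linked RNA gave 0.51 and 0.88 for the calls on Col11a2 (adjusted p = 0.676 and 0.111) and -0.54 for Col11a1 (adjusted p = 0.0246). For Col2a1 it gave -0.42, -0.49 and -0.50 (adjusted p = 0.254, 0.0299 and 0.0424).

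Of 11 fibroblast markers other than collagens, 0 were higher and 4 lower in K19-C2mE, 3 and 5 in K19-Wnt1/C2mE, then 0 and 4 in K19-Nog/C2mE. Their summed intensity was 4022 to 4694 in wild-type, 3690 to 4693 in K19-C2mE, 3285 to 5018 in K19-Wnt1/C2mE and 3768 to 5272 in K19-Nog/C2mE, with none below the array's median gene on every array. Of 6 pericyte markers 1 was higher in each C2mE genotype and 1, 0 and 1 lower, with Cspg4 below the array's median gene on every array and sums of 3260 to 4376 in wild-type, 2794 to 3204 in K19-C2mE, 3187 to 4860 in K19-Wnt1/C2mE and 2295 to 4369 in K19-Nog/C2mE. The changed markers made up 36.4%, 72.7% and 36.4% of the fibroblast list and 33.3%, 16.7% and 33.3% of the pericyte list. Over all genes 29.1%, 43.6% and 32.6% changed. The part of both lists in the results on stromal chains was not tested.

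Among the fibril-associated chains, 3, 3 and 1 of 9 changed in the 3 C2mE genotypes (33.3%, 33.3% and 11.1%, beside the same shares of all genes). Col14a1, which encodes undulin, the type XIV chain found on mature fibres, measured 6.66, 7.08 and 6.82 in wild-type, 5.30, 5.75 and 5.52 in K19-C2mE, 5.97, 5.85, 5.45, 6.20 and 6.20 in K19-Wnt1/C2mE, with 5.45, 5.45 and 6.04 in K19-Nog/C2mE. No array of a C2mE genotype reached the wild-type range. The fall was 2.52-fold, 1.89-fold and 2.31-fold (log2 changes -1.33, -0.92 and -1.21, adjusted p = 6.59e-05, 0.000458 and 0.000141). Without the arrays that held Y-linked RNA it was -1.21 in K19-Wnt1/C2mE (adjusted p = 0.0255), and the value in K19-Nog/C2mE was -1.44 (adjusted p = 0.0211), while -1.79 in K19-C2mE did not pass (adjusted p = 0.0564). A second probe set of Col14a1 fell by 0.83, 0.52 and 0.74, and a further, dimmer one did not pass.

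Col12a1, the type XII chain, went the other way. It measured 6.99, 6.85 and 6.73 in wild-type, 6.92, 7.98 and 7.54 in K19-C2mE, 8.46, 7.87, 7.58, 7.94 and 8.24 in K19-Wnt1/C2mE, with 7.39, 7.20 and 7.43 in K19-Nog/C2mE. Only the array K19-C2mE 1 overlapped wild-type. The rise was 2.24-fold in K19-Wnt1/C2mE (log2 change 1.16, SE 0.19, adjusted p = 6.95e-05) and 1.54-fold in K19-C2mE (0.63, adjusted p = 0.0323, lost without wild-type 2, wild-type 3, K19-C2mE 2 or K19-C2mE 3, adjusted p = 0.0713 to 0.203), and it did not pass in K19-Nog/C2mE (0.49, adjusted p = 0.0866). With those holding Y-linked RNA left out, Col12a1 passed in K19-Wnt1/C2mE (1.11, adjusted p = 0.0258) and not in K19-C2mE (0.07, adjusted p = 0.973). The size depended on the probe set. A second probe set of Col12a1 rose by 2.08, 2.60 and 2.26 log2 units in the 3 C2mE genotypes (adjusted p over all probe sets = 0.000215, 2.27e-06 and 6.8e-05), and a further pair of dim probe sets changed by at most 0.09. Col16a1, a type XVI chain, measured 7.06, 7.07 and 7.10 in wild-type and 7.35, 7.999 and 7.39 in K19-C2mE, with no overlap, and did not pass (log2 change 0.50, adjusted p = 0.0525).

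Of the 14 other chains, 4, 7 and 5 changed in the 3 C2mE genotypes (28.6%, 50% and 35.7%, again beside 29.1%, 43.6% and 32.6% of all genes). The type VI chains divided. Col6a3, the alpha3 chain that carries the precursor of the fragment endotrophin, measured 7.94, 8.57 and 7.84 in wild-type, 9.43, 9.66 and 9.51 in K19-C2mE, 9.60, 9.06, 9.50, 9.60 and 9.81 in K19-Wnt1/C2mE, with 9.35, 9.66 and 9.81 in K19-Nog/C2mE. Wild-type 2 was the highest wild-type array and still below all 11 of these. The rises were 2.67-fold, 2.64-fold and 2.81-fold (log2 changes 1.42, 1.40 and 1.49, adjusted p = 1.48e-05, 2.1e-06 and 6.66e-06), and without the arrays that held Y-linked RNA 0.87 in K19-Wnt1/C2mE (adjusted p = 0.0374), with 1.04 in K19-Nog/C2mE (adjusted p = 0.0297), while 0.86 in K19-C2mE did not pass (adjusted p = 0.216).

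Col6a4, an alternative type VI chain, measured 6.999, 6.92 and 6.67 in wild-type, 7.99, 8.14 and 7.70 in K19-C2mE, 7.65, 7.52, 8.07, 8.03 and 8.37 in K19-Wnt1/C2mE, with 8.71, 7.98 and 7.90 in K19-Nog/C2mE. The groups did not overlap, and the rises were 2.12-fold, 2.09-fold and 2.52-fold (adjusted p = 0.00058, 0.00013 and 6.38e-05). With the arrays that held Y-linked RNA left out, Col6a4 passed in K19-Nog/C2mE (1.27, adjusted p = 0.0424) and not in K19-C2mE or K19-Wnt1/C2mE (1.07 and 0.90, adjusted p = 0.257 and 0.0897). A dim second probe set of Col6a4 changed by at most 0.01. Its neighbour Col6a5 changed by 0.11, -0.16 and -0.03 and did not pass. Col6a1 and Col6a2, the alpha1 and alpha2 chains that pair with alpha3 in the type VI trimer, are neighbours on chromosome 10 and did not rise with Col6a3. Col6a2 measured 10.80, 10.87 and 10.63 in wild-type and 10.20, 10.25 and 10.53 in K19-Nog/C2mE, where it was 1.36-fold lower (adjusted p = 0.0403). It was 1.31-fold lower in K19-Wnt1/C2mE (adjusted p = 0.0346), where wild-type and K19-Wnt1/C2mE overlapped. Each of these 2 calls was lost without wild-type 1 or wild-type 2, the first also without K19-Nog/C2mE 1 or K19-Nog/C2mE 2 and the second also without K19-Wnt1/C2mE 2 or K19-Wnt1/C2mE 3 (adjusted p = 0.0823 to 0.132). Col6a1 measured 10.08, 10.12 and 10.08 in wild-type, and its intervals in the 3 C2mE genotypes were -0.58 to 0.06, -0.54 to 0.03 and -0.57 to 0.06.

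Col17a1, the hemidesmosomal chain of basal epithelial cells, had the largest change of any chain. It measured 3.91, 3.91 and 4.03 in wild-type, 7.53, 7.02 and 8.40 in K19-C2mE, 3.67, 6.28, 4.58, 5.29 and 6.06 in K19-Wnt1/C2mE, with 3.76, 3.67 and 3.30 in K19-Nog/C2mE. K19-C2mE lay above every other array, K19-Wnt1/C2mE spread from below wild-type to far above it, and K19-Nog/C2mE lay just below wild-type. The levels in wild-type and K19-Nog/C2mE were near those of Y-linked genes on the arrays without their RNA (mean log2 intensity of at most 3.6), so that differences from these groups are bounded by the background of the array, and no fold is given for them. The log2 change was 3.70 in K19-C2mE (SE 0.46, adjusted p = 7.86e-06) and 1.23 in K19-Wnt1/C2mE (SE 0.41, adjusted p = 0.0226, lost when any wild-type array, K19-Wnt1/C2mE 2 or K19-Wnt1/C2mE 5 was left out, adjusted p = 0.0514 to 0.0641). Col17a1 did not pass in K19-Nog/C2mE (-0.37, adjusted p = 0.579). When the arrays that held Y-linked RNA were left out, its changes were 3.62 in K19-C2mE, where 1 array was left, and 1.04 in K19-Wnt1/C2mE, and neither passed (adjusted p = 0.108 and 0.388). Of 13 markers of the squamous epithelium of the forestomach, 11 were higher in K19-C2mE, 5 in K19-Wnt1/C2mE and 1 in K19-Nog/C2mE. None was lower. The shares higher were 84.6%, 38.5% and 7.69%, against 15.3%, 21.1% and 15.9% of all genes. Single arrays did not all follow Col17a1. Wild-type 2 had a mean log2 marker intensity of 7.31 with Col17a1 at 3.91, and K19-Wnt1/C2mE 4 had 7.03 with Col17a1 at 5.29. The summed intensity of these markers was 714 to 4273 in wild-type, 11015 to 58650 in K19-C2mE, 1731 to 18333 in K19-Wnt1/C2mE and 910 to 1227 in K19-Nog/C2mE. Trp63 and Dsc3, which define basal squamous cells, lay below the array's median gene on every array, and the part of these markers in the Col17a1 result was not tested.

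Col7a1, the anchoring fibril chain, measured 7.47, 7.26 and 7.45 in wild-type, 7.29, 7.01 and 7.41 in K19-C2mE, 6.50, 7.32, 6.47, 6.49 and 6.85 in K19-Wnt1/C2mE, with 6.14, 5.90 and 6.44 in K19-Nog/C2mE. It was lowest in K19-Nog/C2mE, where the groups did not overlap and the fall was 2.35-fold (log2 change -1.24, SE 0.18, adjusted p = 4.6e-05). In K19-Wnt1/C2mE it was 1.59-fold lower (adjusted p = 0.00305) with 1 array, K19-Wnt1/C2mE 2, inside the wild-type range. Col13a1, a membrane-spanning collagen, was also lowest in K19-Nog/C2mE, at 5.33, 5.55 and 5.02 against 6.35, 6.36 and 6.33 in wild-type. The fall was 2.07-fold (adjusted p = 4e-04), at low signal because Col13a1 lay below the array's median gene on every array. In K19-Wnt1/C2mE it was 1.43-fold lower with overlap (adjusted p = 0.0223), a call lost when any wild-type array, K19-Wnt1/C2mE 1 or K19-Wnt1/C2mE 5 was left out (adjusted p = 0.0517 to 0.0602). Once the arrays that held Y-linked RNA were left out, the falls in K19-Nog/C2mE were 1.10 for Col7a1 and 1.06 for Col13a1 on the log2 scale and did not pass (adjusted p = 0.0756 and 0.0758). The remaining changes were of at most 0.50 log2 units in size: Col23a1 was higher in K19-C2mE (adjusted p = 0.0309), Col20a1 was lower in K19-C2mE and K19-Wnt1/C2mE (adjusted p = 0.0201 and 0.0159), and Col8a2 was lower in K19-Wnt1/C2mE (adjusted p = 0.00847). The call on Col23a1 was lost without wild-type 1, wild-type 3, K19-C2mE 2 or K19-C2mE 3 (adjusted p = 0.0647 to 0.104), those on Col20a1 were lost without wild-type 1 in both genotypes (adjusted p = 0.0837 and 0.0809) and in K19-C2mE also without K19-C2mE 2 or K19-C2mE 3 (adjusted p = 0.0907 and 0.061). None of the calls on Col6a2, Col8a2, Col20a1 and Col23a1 passed with the arrays that held Y-linked RNA left out, nor did those on Col7a1 and Col13a1 in K19-Wnt1/C2mE (adjusted p from 0.0686 to 0.857).

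**Figure D3:**
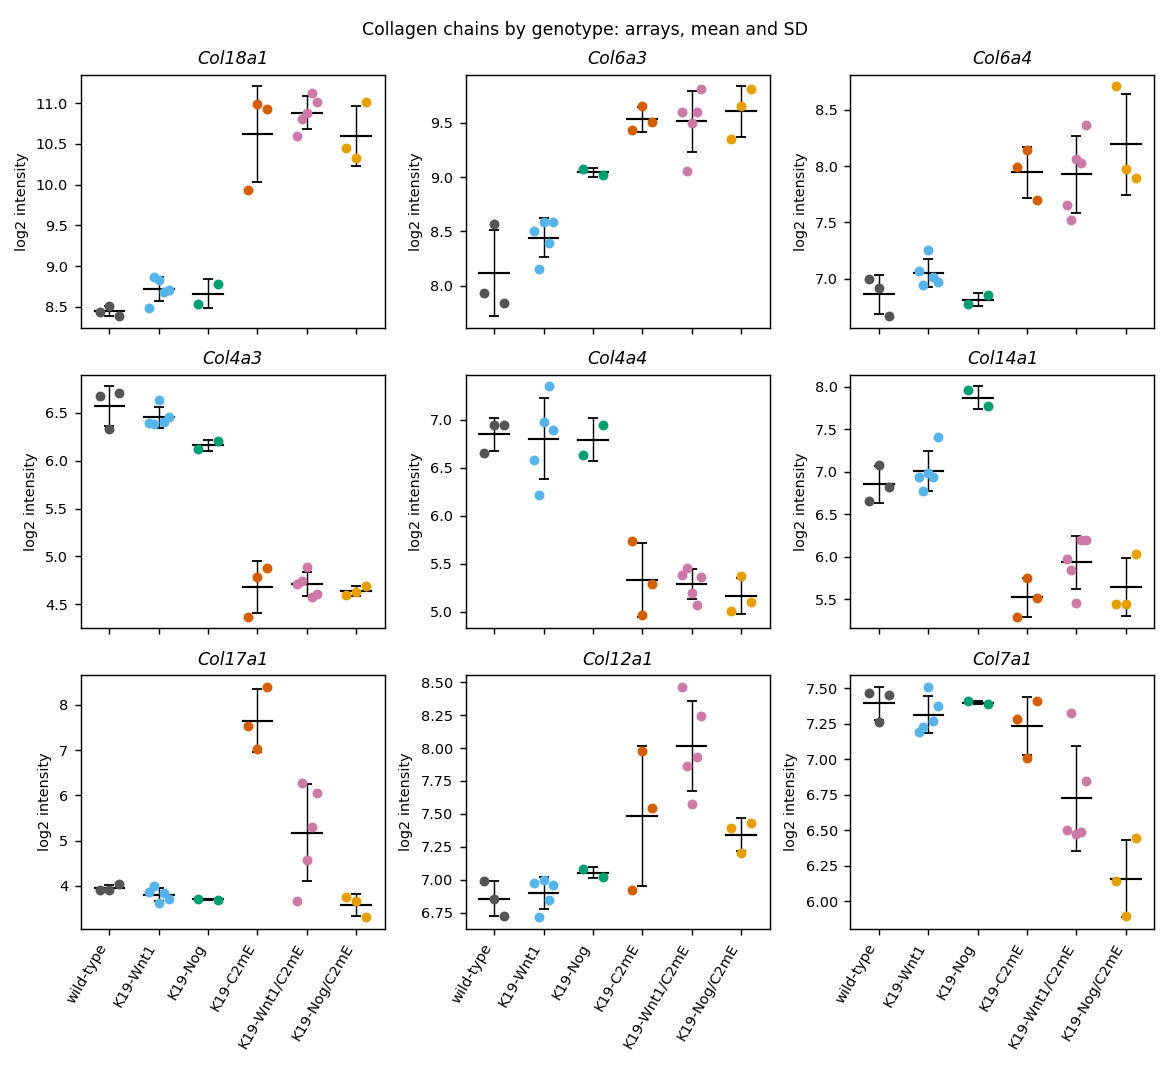
Dots are arrays, the long bar is the mean and the error bar is the SD of log2 intensity of 9 chains in the 6 genotypes. Col18a1, Col6a3 and Col6a4 are high and Col4a3, Col4a4 and Col14a1 low in all 3 C2mE genotypes. Col17a1 and Col7a1 differ among these genotypes, and Col12a1 has its highest mean in K19-Wnt1/C2mE.

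The single transgenics showed few changes. In K19-Wnt1 0 of 42 chains passed in limma (1, Col2a1, at an unadjusted p under 0.05, and 0 with the methods' t-test after adjustment), where 0.011% of all genes passed. In K19-Nog 3 chains passed, all higher (7.14%, against 3.12% of all genes in either direction and 2.13% higher). Col14a1 measured 7.97 and 7.78 in K19-Nog, 2.03-fold above wild-type (adjusted p = 0.0151), the opposite of its fall in the C2mE genotypes. Col8a2, a type VIII chain of short-chain networks, measured 5.37 and 4.96 in K19-Nog against 4.09, 4.30 and 4.23 in wild-type (1.94-fold, adjusted p = 0.00393), and Col6a3 measured 9.07 and 9.02 (1.91-fold, adjusted p = 0.0172). None of these 3 chains overlapped with wild-type, and Col8a2 lay below the array's median gene on every array. Each rests on 2 mice: without K19-Nog 1 no chain passed (adjusted p = 0.182, 0.139 and 0.162 for Col14a1, Col8a2 and Col6a3), and the calls on Col14a1 and Col6a3 were also lost without K19-Nog 2, wild-type 1 or wild-type 3. Without the arrays that held Y-linked RNA 0 chains passed in K19-Nog. Of the 12 smooth muscle markers all 12 were also higher in K19-Nog, with a summed intensity of 42572 to 55908 against 11007 to 16445 in wild-type, and 0 were higher and 5, 10 and 7 lower in the 3 C2mE genotypes (8919 to 10967, 6230 to 11490 and 7584 to 10297), where Col14a1 fell but Col6a3 rose. None of the 12 lay below the array's median gene on every array. Adipocyte markers summed to 2411 to 6378 in K19-Nog against 2188 to 2394 in wild-type, with 2 of 5 higher and Lep below the array's median gene on every array. Beside 2.13% of all genes higher in K19-Nog, the smooth muscle share was 100% and the adipocyte share 40%. In the 3 C2mE genotypes 41.7%, 83.3% and 58.3% of the smooth muscle markers were lower, against 13.8%, 22.5% and 16.7% of all genes. The part of both lists in the K19-Nog results was not tested.

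**Figure D4:**
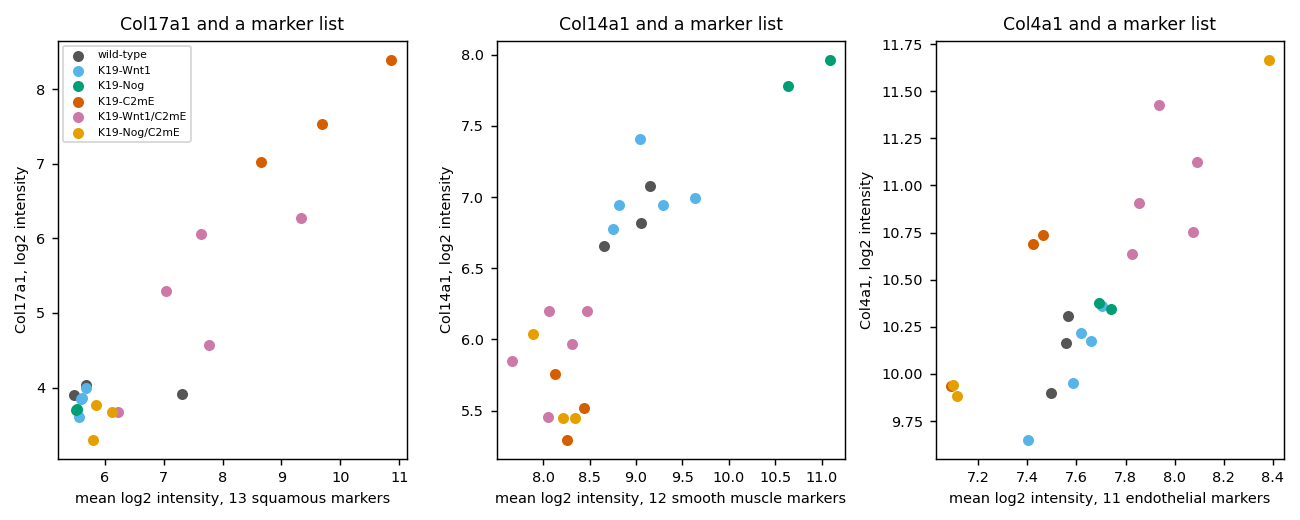
Each dot is 1 of the 21 arrays, with the mean log2 intensity of a marker list on the horizontal axis and the log2 intensity of 1 chain on the vertical axis. K19-C2mE arrays have the highest Col17a1 and 2 of the 3 highest squamous values, both K19-Nog arrays have the highest Col14a1 and smooth muscle values, and 1 K19-Nog/C2mE array has the highest Col4a1 and endothelial values.

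Direct comparisons asked which chains depend on the second transgene. Against K19-C2mE, Col17a1 was the 1 chain that passed in K19-Wnt1/C2mE (log2 change -2.47, adjusted p = 0.00138), or 2.38% of chains against 7.83% of all genes. Against K19-C2mE, Col17a1 (log2 change -4.07, adjusted p = 0.000116) and Col7a1 (2.11-fold lower, adjusted p = 0.00338) passed in K19-Nog/C2mE (4.76% against 2.59%). Between the compound genotypes 4 chains passed (9.52% against 12.8%): relative to K19-Nog/C2mE, Col17a1 was 1.60 log2 units higher in K19-Wnt1/C2mE (adjusted p = 0.0156), and Col12a1 (adjusted p = 0.0239) was 1.60-fold and Col7a1 (adjusted p = 0.0298) 1.48-fold higher there. The fourth, Col24a1, a type XXIV fibrillar chain, measured 2.93, 3.03, 3.12, 3.23 and 3.16 in K19-Wnt1/C2mE against 3.47, 3.35 and 3.53 in K19-Nog/C2mE, without overlap (adjusted p = 0.0136) and below the array's median gene throughout. Without K19-Nog/C2mE 1 only 1 of those 4 passed, the lost ones having adjusted p of 0.0593 to 0.0974. The calls on Col12a1 and Col7a1 were also lost without K19-Nog/C2mE 2 (adjusted p = 0.0997 and 0.162), those on Col17a1 and Col24a1 without K19-Nog/C2mE 3 (adjusted p = 0.0513 and 0.0529), that on Col12a1 without K19-Wnt1/C2mE 1 (adjusted p = 0.0516) and that on Col7a1 without K19-Wnt1/C2mE 5 (adjusted p = 0.0537). The 3 differences of Col17a1 were -2.57, -3.95 and 1.38 with the arrays that held Y-linked RNA left out and did not pass (adjusted p = 0.242, 0.151 and 0.163). In limma's F test among the C2mE genotypes 2 chains passed the unadjusted threshold, Col17a1 and Col7a1, where 7.55% of all genes passed.

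The same C2mE change was also measured on the background of each second transgene. Against K19-Wnt1, 23 chains changed in K19-Wnt1/C2mE (10 higher, 13 lower, or 54.8% against 44.7% of all genes, of which 22.8% higher and 21.8% lower), among them all 8 basement membrane chains. Col18a1 was 2.17 log2 units higher and Col4a3 1.74 lower there, and 10 chains passed without the arrays that held Y-linked RNA. Against K19-Nog, 12 chains changed in K19-Nog/C2mE (3 higher, 9 lower, or 28.6% against 27.8%, of which 14% higher and 13.8% lower), and Col14a1 fell by 2.23 log2 units (4.69-fold, adjusted p = 6.82e-07). An interaction test asked whether the C2mE change itself differed with the second transgene. With Wnt1 0 chains passed (1.47% of all genes did, and 4 chains at an unadjusted p under 0.05), Col17a1 coming nearest at -2.33 (adjusted p = 0.0542). With Nog 2 passed (4.76% against 1.2%): Col17a1 (-3.83, adjusted p = 0.0061) and Col8a2 (-1.01, adjusted p = 0.0426, at low signal on every array). With the arrays that held Y-linked RNA left out the Col17a1 interaction with Nog was -3.74 (adjusted p = 0.735). It was kept with each of 11 arrays left out in turn, 1 at a time, whereas that of Col8a2 was lost with 9 of them (adjusted p = 0.0604 to 0.336), kept only without K19-C2mE 1 or K19-Nog 2.

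Genes that fold, cut, bind and read collagen were followed from lists chosen by function, and the counts below stand beside 29.1%, 43.6% and 32.6% of all genes that changed in the 3 C2mE genotypes. Each named gene is given only in the C2mE genotype where its change was largest, and its other changes are not listed. The largest log2 change was 2.52, 2.49 and 2.19 in the laminin list and 1.97, 2.17 and 1.82 among the receptors. The lowest among the folding genes was -1.41, -1.505 and -1.55. The alternative runs covered the chains and not these genes. Of 18 folding and modification genes, 3 were higher and 5 lower in K19-C2mE, 5 and 4 in K19-Wnt1/C2mE, then 5 and 7 in K19-Nog/C2mE. P4ha2, a prolyl hydroxylase subunit, fell by 1.45 log2 units in K19-Nog/C2mE (adjusted p = 1.94e-07), and P3h4 and Plod2, which act with or as lysyl hydroxylases, fell there by 1.55 (adjusted p = 0.000613) and 1.25 (adjusted p = 0.000889). Colgalt1, which adds galactose to hydroxylysine, rose by 1.47 (adjusted p = 2.91e-09) in K19-Wnt1/C2mE. Of 10 cleavage and crosslinking genes, 0, 3 and 1 changed: in K19-Wnt1/C2mE the enhancer Pcolce2 rose by 0.86 (adjusted p = 0.0075) and Pcolce fell by 0.39 (adjusted p = 0.0173), and in K19-Nog/C2mE the crosslinking enzyme Lox rose by 0.63 (adjusted p = 0.00675). Pcolce2 lay below the array's median gene on every array, and the Pcolce arrays overlapped wild-type.

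Of 16 proteoglycans and matricellular proteins, 4 were higher and 4 lower in K19-C2mE, 4 and 5 in K19-Wnt1/C2mE, then 5 and 3 in K19-Nog/C2mE. Thbs1, the matricellular protein thrombospondin, rose by 3.21 log2 units in K19-Wnt1/C2mE (adjusted p = 2.73e-08), and Fn1, fibronectin, by 1.43 there (adjusted p = 3.92e-05). Aspn, a small leucine-rich proteoglycan, rose by 1.93 in K19-Nog/C2mE (adjusted p = 1.51e-05), and Dpt, dermatopontin, which binds decorin and fibrils, fell by 1.85 in K19-Wnt1/C2mE (adjusted p = 6e-08). Of 15 laminins and other basement membrane genes, 3 were higher and 1 lower, 5 and 3, and 4 and 3. The laminin chains Lama3 (2.52 in K19-C2mE, adjusted p = 4.44e-06), Lama1 (1.39 in K19-Wnt1/C2mE, adjusted p = 0.00173) and Lamb3 (0.96 in K19-Wnt1/C2mE, adjusted p = 0.000786) rose, and Lamb2 fell by 0.81 in K19-Nog/C2mE (adjusted p = 0.000479). Of 9 collagen receptors 3, 4 and 3 were higher and 0, 1 and 0 lower. In K19-Wnt1/C2mE the integrin chains Itga2 and Itgb1 rose by 2.17 (adjusted p = 3.22e-05) and 0.73 (adjusted p = 1.21e-06) and Mrc2, an endocytic receptor of collagen, by 0.59 (adjusted p = 0.00625), and in K19-Nog/C2mE the integrin chain Itga1 rose by 1.07 (adjusted p = 0.000379). Lamb2 and Mrc2 lay below the array's median gene on every array. In K19-Nog 0, 1, 3, 1 and 1 genes of the 5 lists were higher and 0, 0, 0, 1 and 0 lower, against 3.12% of all genes.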

How the data were processed

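RNA of 21 glandular stomachs (TRIzol, then RNeasy) had been hybridised to Affymetrix mouse arrays. The authors made the deposited intensity values by RMA (background correction, quantile normalization and 1 value per probe set) with Affymetrix Power Tools in Rosetta Resolver, on a linear scale, and the authors also deposited log10 ratios of each array to the mean wild-type array, used here as an alternative. Quantile normalization gives arrays a common distribution, so changes are relative to the other genes. Of 45037 probe sets, 34945 had 1 annotated gene, 932 several and 9160 none. Each of 18193 genes was represented by its brightest probe set, whose log2 intensity was fitted with limma 3.58.1 (R 4.3.3, data.table package 1.17.8) with 1 coefficient per genotype over all 21 arrays and eBayes, and p-values were adjusted by Benjamini-Hochberg over all genes at a threshold of 0.05, except the F test (unadjusted p of 0.001). "Changed", "higher", "lower" and "passed" refer to these thresholds, and intervals are 95%. The fit was tested on simulated data. Arrays counted as holding Y-linked RNA where the mean log2 intensity of Eif2s3y, Kdm5d and Uty was above 5. The number of arrays limits the precision.

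The members and gene lists were chosen with earlier results of these data known. Every chain is accounted for. Values on each array were given for the 3 chains of each class with the highest wild-type level, for the 4 largest changes in each direction against wild-type in each comparison and for chains called in K19-Nog, between C2mE genotypes or by an interaction, and for each partner list up to 4 called genes with the largest change were named. Further chains given by array (Col13a1 and Col1a1 among them) were chosen after their values were seen. Alternatives were the arrays in the model, the replicate number as a block, a filter on dim genes, median centring, a variance trend, the ratio table, the mean of a gene's probe sets, a 2-fold threshold, the methods' t-test, Y-linked level or arrays, and each array left out. Figures used Python 3.11.15 and matplotlib 3.10.9.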

Additional observations from a re-analysis of the deposited data

Results flagged for a closer look

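The change of Col17a1 with C2mE differed with Nog by -3.83 log2 units in limma's interaction test (adjusted p = 0.0061), the 3 K19-C2mE arrays being far above wild-type and the 3 K19-Nog/C2mE arrays ranging from 3.30 to 3.76. That of Col8a2 differed with Nog by -1.01 (adjusted p = 0.0426), the 2 K19-Nog arrays being above all wild-type arrays. Col8a2 lay below the array's median gene on every array. One array stood apart from the rest of its genotype for Col5a3, a type V chain, at 6.77 on K19-Wnt1 5 against 7.02 to 7.11 on the other K19-Wnt1 arrays. One stood apart for Col4a5, at 8.49 on K19-Wnt1/C2mE 4 against 8.002 to 8.12 on the others of that genotype. Among the 84 groups of 4 or more arrays examined, chance marks about 1 in 20, or 4.2, and 2 were found.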

How the results depend on the processing

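Of 96 changes of single chains, 19 passed under every alternative run that measured the chain, and 0 reversed direction. The filter on dim genes measured 37 of the 96. For each altered count below, the cause was not tested unless stated. With the genotypes compared alone in the model, 5 chains passed in K19-Nog, 0 in K19-Wnt1/C2mE against K19-C2mE, 1 in K19-Nog/C2mE against K19-C2mE, 0 between the compound genotypes and 1 in the F test. With genes of low mean signal left out, fewer chains were tested, and 7, 10 and 6 passed in the 3 C2mE genotypes (in the order of the report), 1 in K19-Nog, 9 in K19-Wnt1/C2mE against K19-Wnt1, 6 in K19-Nog/C2mE against K19-Nog, 1 between the compound genotypes and 0 in either of these against K19-C2mE, in the Nog interaction and in the F test. Requiring a 2-fold change as well, which is stricter by construction, left 7, 7 and 8 in the C2mE genotypes, 1 in K19-Nog, 1 between the compound genotypes, 7 in K19-Wnt1/C2mE against K19-Wnt1 and 7 in K19-Nog/C2mE against K19-Nog. Median centring gave 5 in K19-Nog and 1 in the Nog interaction, the mean of probe sets gave 5 in K19-Nog, and a fit on all probe sets, chosen after seeing the data, gave 1 in the Nog interaction. The methods' t-test called 1 chain in K19-Wnt1 and 14 in K19-Nog without adjustment, and after Benjamini-Hochberg 0 in K19-Nog, 0 in either compound genotype against K19-C2mE, 0 between the compound genotypes and 1 in K19-Nog/C2mE against K19-Nog, and a plain analysis of variance called 0 among the C2mE genotypes. With Y-linked RNA added to the model 1 passed in K19-Nog. With the arrays holding Y-linked RNA left out, which leaves fewer arrays, 1, 9 and 8 passed in the C2mE genotypes, 0 in K19-Nog, 10 in K19-Wnt1/C2mE against K19-Wnt1, and 0 in the 3 comparisons among C2mE genotypes, the Nog interaction and the F test. Leaving out 1 array at a time gave 8 to 16 (K19-C2mE), 16 to 20 (K19-Wnt1/C2mE), 10 to 12 (K19-Nog/C2mE), 0 to 0 (K19-Wnt1) and 0 to 3 (K19-Nog) chains against wild-type, 22 to 24 in K19-Wnt1/C2mE against K19-Wnt1, 9 to 12 in K19-Nog/C2mE against K19-Nog, 1 to 3 in K19-Wnt1/C2mE against K19-C2mE (3 without K19-C2mE 2), 2 to 2 in K19-Nog/C2mE against K19-C2mE, 1 to 6 between the compound genotypes, 0 to 1 and 1 to 2 for the Wnt1 and Nog interactions and 2 to 3 in the F test. Where this left 1 K19-Nog array, that array was assumed to vary like the other genotypes.

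Same-numbered arrays of different genotypes deviated together little (r from -0.42 to 0.27 over 28 pairs, 6 of them over 0.1). Of these pairs 10 were best matched to their own number. With so few arrays in each genotype the check could not decide whether the numbers are a pairing. With the replicate number as a block 5 chains passed in K19-Nog, 3 in K19-Wnt1/C2mE against K19-C2mE, 1 in the Nog interaction and 4 in the F test. The 17 chains that lay below the array's median gene on every array were measured at low signal over background. Col8a2, Col13a1, Col20a1 and Col23a1 were among them.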
